A study of Mus musculus with 21 samples.

Results

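The genes described here are 9 transcripts of the thick ascending limb of Henle's loop and of the distal convoluted tubule, *Umod*, *Slc12a1*, *Kcnj1*, *Bsnd*, *Slc12a3*, *Pvalb*, *Calb1*, *Trpm6* and *Wnk1*. They were listed by name, with earlier results of these data known, and matched by Entrez Gene number to 9 of the 27179 rows of each read count table. RNA was sequenced from podocyte fractions of kidneys of wildtype C57BL/6J male mice in 3 groups, with 1 library per mouse. The 6 young mice were 4 months old and are labelled untreated. The 15 middle-aged mice were 19.5 months old, and from 18 months they received intraperitoneal injections for 6 weeks of saline (7 mice) or of 10 mg/kg MCC950 (8 mice), an inhibitor of the NLRP3 inflammasome. The comparison of saline-treated with young mice therefore differs in age and in the injections, which cannot be told apart. The cells were taken from digested cortex, after removal of the medulla, with nephrin antibodies and magnetic beads. Nephrin is a podocyte protein, and the libraries do not show which cells the tubule transcripts in the fraction came from.

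The thick ascending limb takes up sodium, potassium and chloride through the apical cotransporter NKCC2, recycles potassium through the channel ROMK, and lets chloride leave through basolateral channels that need barttin. It is impermeable to water and secretes uromodulin, the most abundant protein of normal urine. The distal convoluted tubule follows it, takes up sodium and chloride through the cotransporter NCC, and reclaims magnesium and calcium. WNK kinases, acting through the kinases SPAK and OSR1, set the activity of both cotransporters.

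Sequence just upstream of 4 of the genes is shown because these are the genes on which the comparisons turn. *Umod* and *Slc12a1* fell with MCC950, *Slc12a3* enters the ratios between segments, and *Pvalb* fell in saline-treated middle-aged mice relative to young mice. Each stretch is RefSeq sequence of GRCm38.p6 (mm10), read 5′ to 3′ on the gene's own strand, and ends before the first base of any transcript of the gene in RefSeq or GENCODE. Capitals mark a match to GCCNNNGGC, the letters searched for the TFAP2 family, to which the distal tubule factor encoded by *Tfap2b* belongs.
*Umod* (chr7:119479283-119479512, minus strand): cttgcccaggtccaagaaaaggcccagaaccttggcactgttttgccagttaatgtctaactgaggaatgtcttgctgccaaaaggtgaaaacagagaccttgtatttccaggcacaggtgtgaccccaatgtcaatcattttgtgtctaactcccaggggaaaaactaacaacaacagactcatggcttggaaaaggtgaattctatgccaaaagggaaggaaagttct
*Slc12a1* (chr2:125152350-125152504, plus strand): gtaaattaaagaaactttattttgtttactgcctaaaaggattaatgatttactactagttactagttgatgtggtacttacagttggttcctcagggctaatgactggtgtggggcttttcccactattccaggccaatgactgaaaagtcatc
*Slc12a3* (chr8:94328958-94329108, plus strand): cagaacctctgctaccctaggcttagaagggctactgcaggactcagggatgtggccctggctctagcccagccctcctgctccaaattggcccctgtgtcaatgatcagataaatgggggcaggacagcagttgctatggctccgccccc
*Pvalb* (chr15:78206401-78206650, minus strand): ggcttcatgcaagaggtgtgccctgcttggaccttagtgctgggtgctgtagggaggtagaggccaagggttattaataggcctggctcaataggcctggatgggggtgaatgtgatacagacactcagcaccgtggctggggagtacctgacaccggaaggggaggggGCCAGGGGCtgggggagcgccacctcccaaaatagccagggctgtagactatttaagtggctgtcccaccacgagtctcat
In the 250 bases before each annotated start, on either strand, GCCNNNGGC matched in 5 of 8 windows of these genes (*Wnk1*, *Slc12a3*, *Trpm6* and both starts of *Pvalb*) and in 13.7% of all 32851 mouse windows. The match of *Slc12a3* lies within its longest transcripts and is outside the stretch shown. The letters TCAAGGTCA (estrogen-related receptor) matched in 0 of 8 windows and in 0.387% of all windows, and GTTAATNAT (part of the HNF1 site) in 0 of 8 and in 0.737%. *Calb1* and *Bsnd* were not among the windows.

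The libraries held 27375870 to 36827823 counts in young, 45772937 to 84876399 in saline-treated and 35440472 to 58247271 in MCC950-treated mice. Outside mitochondrial genes the ranges were 5804891 to 13269290, 14362648 to 27818925 and 16118731 to 28569185. Every young library was thus shallower than every saline-treated one in both measures. The part of depth in the differences between groups was not tested. Genes of the mitochondrial genome took a median of 71.1% of counts in young, 68.6% in saline-treated and 57.5% in MCC950-treated libraries, with a range of 49.9% to 80.4%. Levels below are CPM, counts scaled to the library total after TMM normalization, which sets libraries to the same typical gene. All 9 genes passed the filter on low counts. Even the lowest, *Pvalb*, had 257 to 1234 raw counts in a library, so counting error was small beside the spread between mice.

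Compared per transcript length, *Umod* was the highest of the 9 genes in each group. Its median RPKM (counts scaled by both the library and the transcript length) was 580 in young, 826 in saline-treated and 589 in MCC950-treated libraries. *Slc12a3* came next with medians of 181, 201 and 236, followed by *Kcnj1* with 103, 89.8 and 95.6. The ranges of *Umod* and *Slc12a3*, and of *Slc12a3* and *Kcnj1*, did not overlap within any group. In the middle of the order, neighbours mostly overlapped. *Slc12a1* took place 5 of 9 in young, 4 in saline-treated and 6 in MCC950-treated libraries, with median RPKM of 58.4, 67.7 and 31.2, and its range overlapped those of its neighbours each time. *Trpm6* was the lowest gene in every group, with medians of 4.71, 3.95 and 4.21. The lengths are those of the longest coding transcript, and kidney cells also make a short *Wnk1* transcript, so the per-length level of *Wnk1* is uncertain.

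These levels stood beside those of podocyte genes. The 15 podocyte markers summed to 849 to 1833 CPM in young, 353 to 619 in saline-treated and 449 to 731 in MCC950-treated libraries. *Umod* alone had 1378 to 2151, 1815 to 2437 and 937 to 2040 CPM in the same groups. All 15 podocyte markers were detected, and so were all 15 proximal tubule and all 11 collecting duct markers.

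With age, 3 of the 9 genes fell and 0 rose. *Calb1*, *Pvalb* and *Bsnd* were lower in saline-treated middle-aged than in young mice. Among all 16377 genes tested, 12.4% were called lower and 12.2% higher (edgeR's quasi-likelihood test, Benjamini-Hochberg adjusted p under 0.05). With MCC950, 2 of the 9 genes fell and 0 rose relative to saline. These were *Umod* and *Slc12a1*, against 4.86% of all genes called lower and 11.9% called higher. Between MCC950-treated and young mice, *Slc12a1* and *Bsnd* fell and *Slc12a3* rose, against 16.5% of all genes called lower and 21.8% called higher. Each group of libraries serves in 2 of the 3 comparisons, so the comparisons are not independent. In none of the 3 did any of the 9 genes separate the groups without overlap, which 9.37% of all genes did for saline-treated against young, 1.74% for MCC950-treated against saline-treated and 7.94% for MCC950-treated against young. The median log2 fold change of the 9 genes was -0.26 with age, 0.06 with MCC950 and -0.21 between MCC950-treated and young mice, beside 0.02, 0.00 and 0.08 for all genes. The choice of scaling bears on the MCC950 comparisons. With library totals alone, which the mitochondrial share enters in full, the median of all genes shifted to 0.42 against saline and 0.44 against young. The calls against saline then changed from 1957 higher and 796 lower to 6397 higher and 59 lower, and those of the 9 genes from 0 higher and 2 lower to 4 higher and 0 lower. Relative to that shifted median, *Umod* was still at -0.57 and *Slc12a1* at -0.86.

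**Figure D1:**
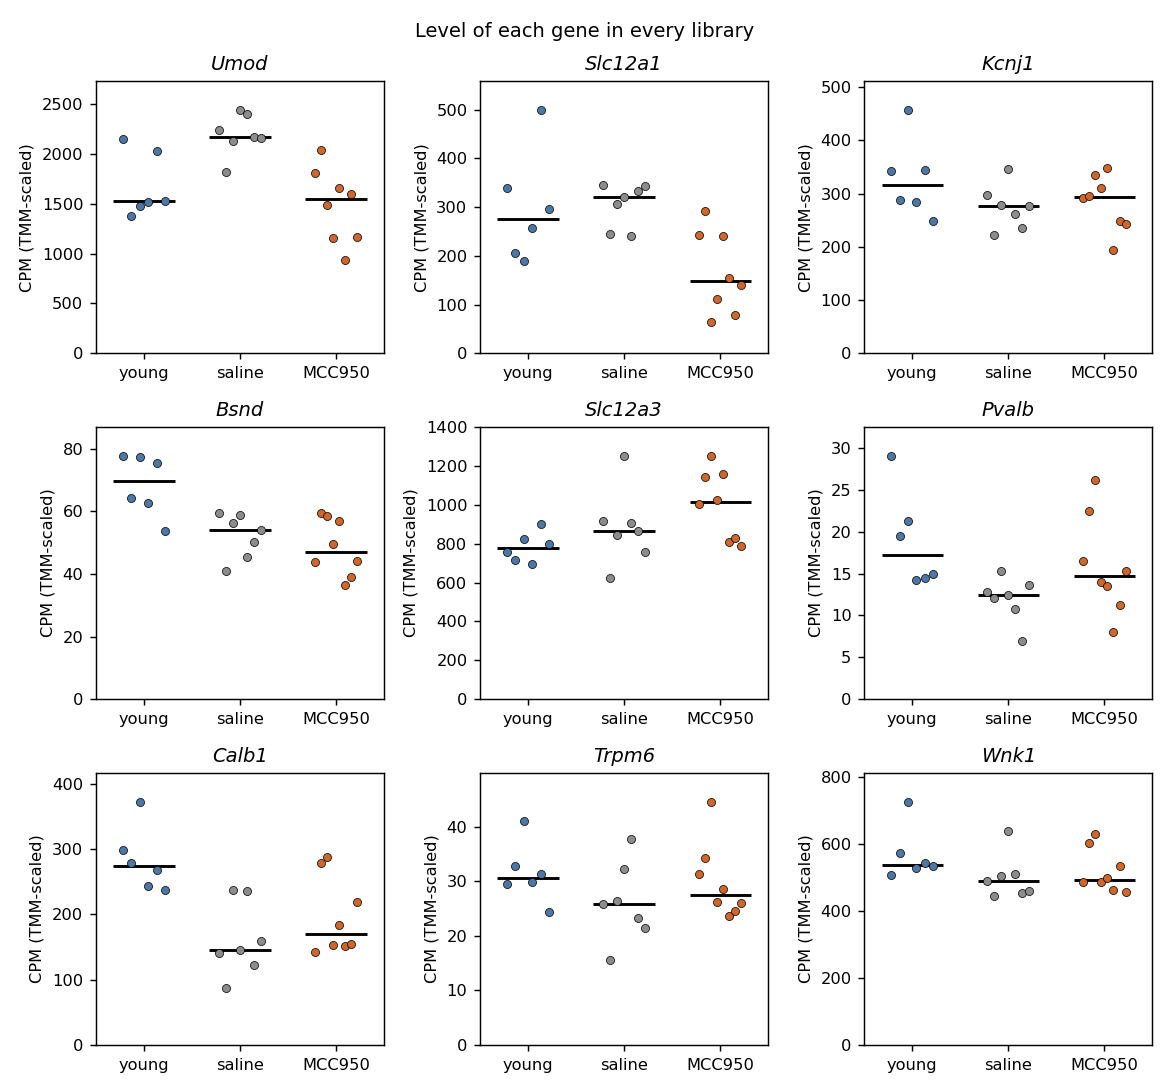
Level of each of the 9 genes in TMM-scaled CPM (vertical axes, each from 0) in every library of the 3 groups (young, and middle-aged with saline or MCC950). Points are libraries and bars are medians: 7 of 8 MCC950-treated libraries lie below the lowest saline-treated library for *Umod*, and 6 of 7 saline-treated libraries lie below the lowest young library for *Calb1*.

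*Umod*, on chromosome 7, encodes uromodulin. It had 1378, 1523 and 2151 CPM (lowest, median, highest) in young, 1815, 2168 and 2437 in saline-treated and 937, 1545 and 2040 in MCC950-treated libraries. Saline-treated libraries were the highest group, and 5 of 7 exceeded the highest young library. The age difference did not pass the threshold (log2 fold change 0.38, standard error 0.16, adjusted p = 0.0876), but it did when young replicate 1 was left out (adjusted p = 0.0468), when only the 2 groups compared entered the fit (adjusted p = 0.0414) or with the mean level of proximal tubule markers as a covariate (log2 fold change 0.45, adjusted p = 0.0294). After MCC950 *Umod* fell by 0.56 on the log2 scale (standard error 0.15, adjusted p = 0.0156), and 7 of 8 libraries lay below the lowest saline-treated one. The call held when each library was left out in turn (highest adjusted p 0.0321). MCC950-treated and young libraries overlapped, with 4 of 8 above the young median (log2 fold change -0.18, standard error 0.16, adjusted p = 0.373).

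*Slc12a1*, on chromosome 2, encodes NKCC2, the target of loop diuretics. Its CPM was 189, 277 and 499 in young, 241, 321 and 345 in saline-treated and 64.0, 148 and 291 in MCC950-treated libraries. The young libraries spanned the whole saline range, and the age difference did not pass (log2 fold change 0.03, standard error 0.29, adjusted p = 0.946). With MCC950 it fell by 0.88 (standard error 0.27, adjusted p = 0.0321), the largest change among the 9 genes in that comparison, and 5 of 8 libraries lay below the lowest saline-treated one. The spread was wide. MCC950 replicates 3 and 7 had 64.0 and 78.6 CPM, while replicates 1, 2 and 5 had 243, 291 and 241, all within the saline range. The call was lost without MCC950 replicate 3 (adjusted p = 0.0503), replicate 4 (0.0612) or replicate 8 (0.0531). *Slc12a1* was also lower in MCC950-treated than in young mice (log2 fold change -0.85, standard error 0.28, adjusted p = 0.0230), a call lost without young replicate 5 (adjusted p = 0.0566). *Umod* and *Slc12a1* each overlap an antisense gene, *Gm44588* and *Gm14002*. No source used here states a strand setting for the counting, so reads of these partners cannot be told apart.

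*Kcnj1* and *Bsnd* encode the other parts of salt transport in this segment, although both are also made further along the nephron. *Kcnj1*, on chromosome 9, encodes ROMK, and its CPM was 249, 315 and 457 in young, 222, 276 and 347 in saline-treated and 194, 294 and 348 in MCC950-treated libraries. The groups overlapped broadly, and its log2 fold change was -0.26 with age (adjusted p = 0.208), 0.05 with MCC950 (adjusted p = 0.841) and -0.21 between MCC950-treated and young mice (adjusted p = 0.249). *Bsnd*, on chromosome 4, encodes barttin, and its CPM was 53.8, 69.8 and 77.7 in young, 41.0, 54.0 and 59.5 in saline-treated and 36.5, 46.9 and 59.5 in MCC950-treated libraries. All 7 saline-treated and all 8 MCC950-treated libraries lay below the young median. *Bsnd* fell by 0.39 with age (standard error 0.12, adjusted p = 0.0254), a call lost without young replicate 1 (adjusted p = 0.0588), young replicate 3 (0.0537) or saline replicate 5 (0.0505). The call was also lost with library totals only (0.163) and with podocyte markers as a covariate (log2 fold change -0.20, adjusted p = 0.712). In MCC950-treated mice *Bsnd* was below the young level (log2 fold change -0.50, standard error 0.12, adjusted p = 0.00310) and did not pass between MCC950 and saline (log2 fold change -0.10, standard error 0.12, adjusted p = 0.574). The 4 genes of the thick ascending limb thus gave different values with MCC950: *Umod* and *Slc12a1* passed the test, *Kcnj1* and *Bsnd* did not, and the difference between these pairs was not tested.

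*Slc12a3*, on chromosome 8, encodes NCC, the target of thiazides and the defining transporter of the distal convoluted tubule. It had 693, 780 and 900 CPM in young, 621, 866 and 1252 in saline-treated and 788, 1015 and 1250 in MCC950-treated libraries. Saline-treated libraries spanned the other groups, and neither comparison with them passed (log2 fold change 0.17 with age, adjusted p = 0.410, and 0.18 with MCC950, adjusted p = 0.358). MCC950-treated mice were higher than young mice (0.36 on the log2 scale, standard error 0.14, adjusted p = 0.0473), with 8 of 8 libraries above the young median and 5 above the highest young library. This call was close to the threshold and was lost without any one of young replicates 1, 2, 3, 4 and 6 or MCC950 replicates 1 to 5 (adjusted p of 0.0640 to 0.117). It was also lost with RLE size factors (0.0686), with no filter on low counts (0.0535), in a fit of the 2 groups alone (0.0522) and with proximal tubule (0.120) or podocyte (0.403) markers as a covariate.

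*Calb1*, on chromosome 4, encodes calbindin-D28k, a calcium-buffering protein of the late distal convoluted and connecting tubule. Its CPM was 237, 274 and 372 in young, 86.5, 145 and 238 in saline-treated and 143, 169 and 288 in MCC950-treated libraries. With age it fell by 0.81 (standard error 0.22, adjusted p = 0.00891), the largest age difference of the 9 genes, and 6 of 7 saline-treated libraries lay below the lowest young library. The exception, saline replicate 3, had 238 CPM against 237 in the lowest young library. The call held when each library was left out (highest adjusted p 0.0278). MCC950-treated libraries had values between the groups. They did not pass against saline (log2 fold change 0.29, standard error 0.20, adjusted p = 0.347), and against young mice the value just missed the threshold (log2 fold change -0.53, standard error 0.21, adjusted p = 0.0511), with the call made without young replicate 4 (adjusted p = 0.0432), young replicate 6 (0.0367), MCC950 replicate 2 (0.0249) or MCC950 replicate 3 (0.0222). It was also made with DESeq2 (0.0234), RLE size factors (0.0357) or a fit of the 2 groups alone (0.0282).

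*Pvalb*, on chromosome 15, encodes parvalbumin, which marks the early distal convoluted tubule. It had 14.3, 17.2 and 29.0 CPM in young, 6.98, 12.5 and 15.3 in saline-treated and 8.05, 14.7 and 26.2 in MCC950-treated libraries. With age it fell by 0.66 (standard error 0.23, adjusted p = 0.0406), and 6 of 7 saline-treated libraries lay below the lowest young one. The call was lost without any one of young replicates 1, 2 and 3 or saline replicates 2, 4, 5 and 6, with the highest adjusted p, 0.128, without young replicate 1, whose 29.0 CPM was the top of its group. It was also lost with no filter on low counts (adjusted p = 0.0511), with library totals only (0.0515) and with proximal tubule (0.0734) or podocyte (0.766) markers as a covariate. *Pvalb* did not pass with MCC950 against saline (log2 fold change 0.41, standard error 0.22, adjusted p = 0.203), although 4 of 8 libraries exceeded the highest saline-treated one, nor against young mice (log2 fold change -0.26, adjusted p = 0.379).

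*Trpm6*, on chromosome 19, encodes the apical magnesium channel, and *Wnk1*, on chromosome 6, encodes a kinase that is widely expressed and regulates both cotransporters. *Trpm6* had 24.3, 30.7 and 41.1 CPM in young, 15.6, 25.7 and 37.7 in saline-treated and 23.5, 27.4 and 44.5 in MCC950-treated libraries. *Wnk1* had 508, 538 and 726, then 443, 488 and 638, and 457, 493 and 630 CPM in the same order. The 3 groups overlapped for both genes, and neither passed in any comparison. The log2 fold changes with age were -0.27 for *Trpm6* (adjusted p = 0.267) and -0.19 for *Wnk1* (adjusted p = 0.220), and with MCC950 they were 0.20 (adjusted p = 0.429) and 0.06 (adjusted p = 0.736). Relative to young mice, MCC950-treated mice had values of -0.08 for *Trpm6* (adjusted p = 0.745) and -0.13 for *Wnk1* (adjusted p = 0.342).

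**Figure D2:**
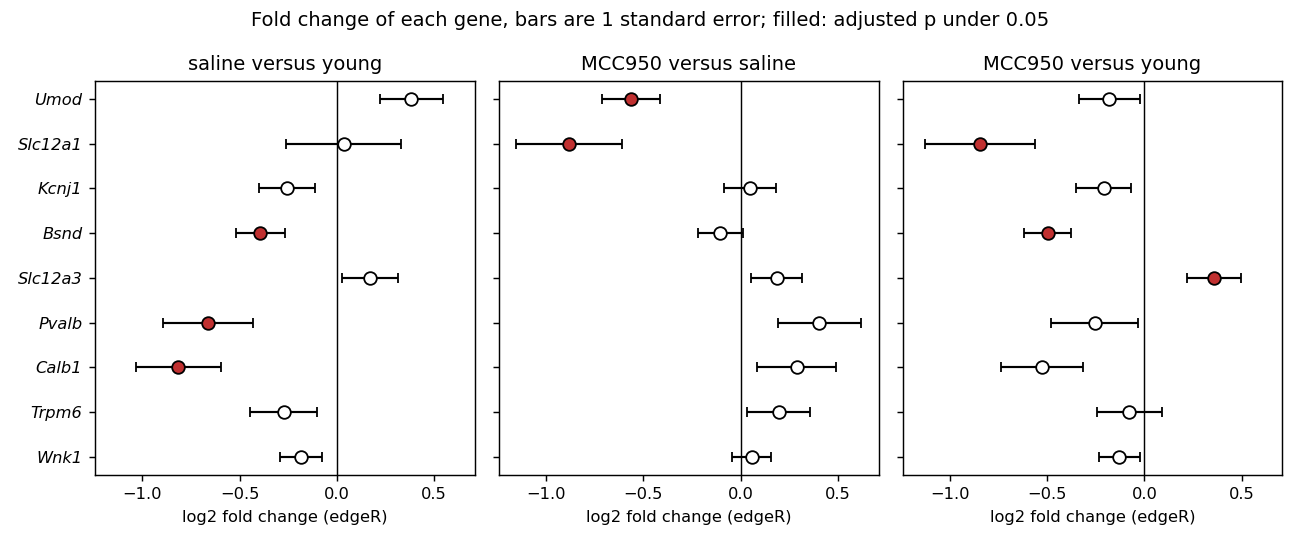
Log2 fold change (horizontal axes) of the 9 genes in the 3 comparisons, from edgeR with all libraries in one fit. Points are estimates, bars are 1 standard error, and filled points passed an adjusted p of 0.05: *Calb1*, *Pvalb* and *Bsnd* in saline-treated against young mice, *Umod* and *Slc12a1* in MCC950-treated against saline-treated mice, and *Slc12a1*, *Bsnd* and *Slc12a3* in MCC950-treated against young mice.

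Ratios within a library do not depend on how libraries are scaled. The log2 ratio of *Slc12a3* to *Slc12a1*, the cotransporters of the 2 segments, was 0.85, 1.43 and 2.12 in young, 1.14, 1.41 and 1.96 in saline-treated and 1.97, 2.44 and 4.29 in MCC950-treated libraries. Each MCC950-treated library lay above each saline-treated one, though by a margin of only 1.97 against 1.96 at the edge, while young and MCC950-treated libraries overlapped. MCC950 replicate 3 had the highest ratio, 4.29, followed by replicate 7 with 3.40 and replicate 4 with 3.21. The log2 ratio of *Calb1* to *Slc12a3* was -1.76, -1.44 and -1.15 in young, -3.11, -2.70 and -1.83 in saline-treated and -2.81, -2.42 and -1.85 in MCC950-treated libraries. All 15 middle-aged libraries lay below all 6 young libraries, and the 2 middle-aged groups overlapped. *Pvalb* to *Slc12a3* had medians of -5.44, -6.16 and -6.07 with overlap of all groups. *Umod* to *Slc12a1* had medians of 2.62, 2.79 and 2.98, and within the MCC950 group it ran from 2.60 to 4.54, so the balance of these thick ascending limb genes differed between mice of one group. These ratios are descriptions of chosen pairs, with no test, and their genes were listed with earlier results of these data known. The share of all gene pairs whose ratios separate the groups was not computed, so the separations have no background to be set against.

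**Figure D3:**
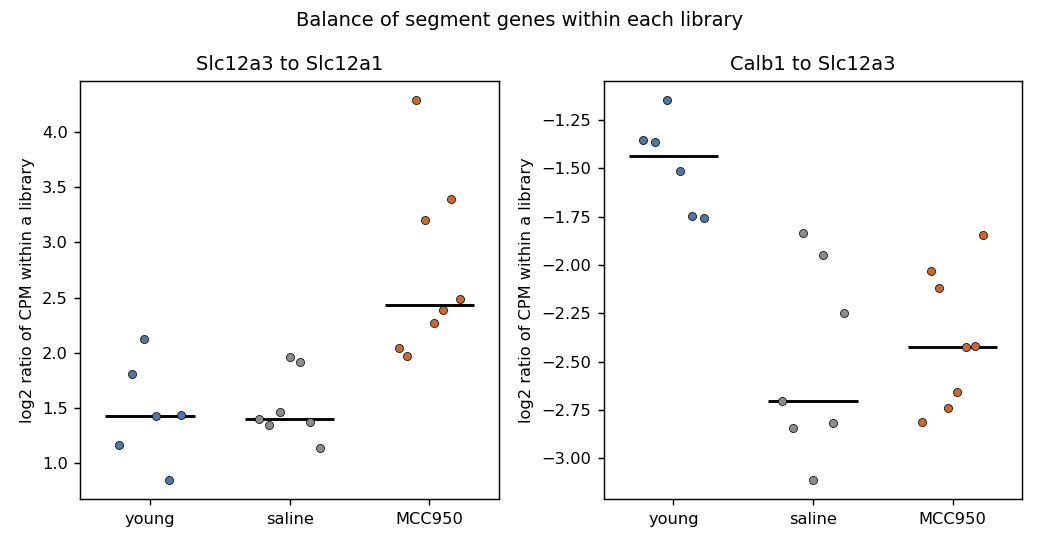
Log2 ratio of CPM of *Slc12a3* to *Slc12a1* (left) and of *Calb1* to *Slc12a3* (right) within each library, by group, with medians as bars. The 8 MCC950-treated libraries (1.97 to 4.29) lie above the 7 saline-treated ones (1.14 to 1.96) on the left, and the 6 young libraries (-1.76 to -1.15) lie above all middle-aged ones on the right. The other ratios formed, *Pvalb* to *Slc12a3* and *Umod* to *Slc12a1*, overlapped between all groups and are not drawn.

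Pooled over the groups after subtracting each group's mean, *Slc12a1* mostly had lower correlations than the other genes. The 28 pairs without it had r from 0.28 to 0.85, and the 8 pairs with it had r from -0.27 to 0.47. Pearson's r was taken from log2 CPM after subtracting each group's mean, over 21 libraries. Within a library, both genes of a pair share its depth and scaling. The value was highest for *Kcnj1* and *Bsnd* (0.85), *Calb1* and *Trpm6* (0.76) and *Trpm6* and *Wnk1* (0.75). *Slc12a1* had its highest r with *Umod* (0.47) and values from -0.27 (*Wnk1*) to 0.24 (*Bsnd*) with the other 7. Single groups differed from these pooled values. *Slc12a1* had r = 0.83 with *Umod* in young and 0.84 with *Bsnd* in saline-treated libraries. In MCC950-treated libraries its highest r was 0.37 (*Umod*). Pairs without it could also be negative in 1 group, such as *Umod* and *Wnk1* in young libraries (-0.48). *Kcnj1* and *Bsnd* also varied with the summed collecting duct markers (r = 0.80 and 0.71), and *Slc12a3* did so less closely (0.53). Among the marker lists, *Wnk1* had its highest r with endothelial (0.55) and podocyte markers (0.49). Searched over 12098 genes with a mean log2 CPM of at least 1, the genes most like *Slc12a1* in this measure were *Pla1a* (r = 0.94), *Sim2* (0.93), *Fa2h* (0.93), *Egfl6* (0.92) and *Cldn19* (0.92). *Cldn19* encodes a tight junction claudin of the thick ascending limb. Those most like *Slc12a3* were *Dlec1* (0.87), *Wnk4* (0.86), *Ybx2* (0.86), *Myo10* (0.86) and *Efna5* (0.86). *Wnk4* encodes the kinase of the same pathway that acts on NCC. For *Slc12a1* the lowest r of these 5 within 1 group was 0.65 (*Fa2h*, saline), and for *Slc12a3* it was 0.64 (*Myo10*, young). These genes were picked by r over the same libraries, so high values within groups follow in part from that choice.

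**Figure D4:**
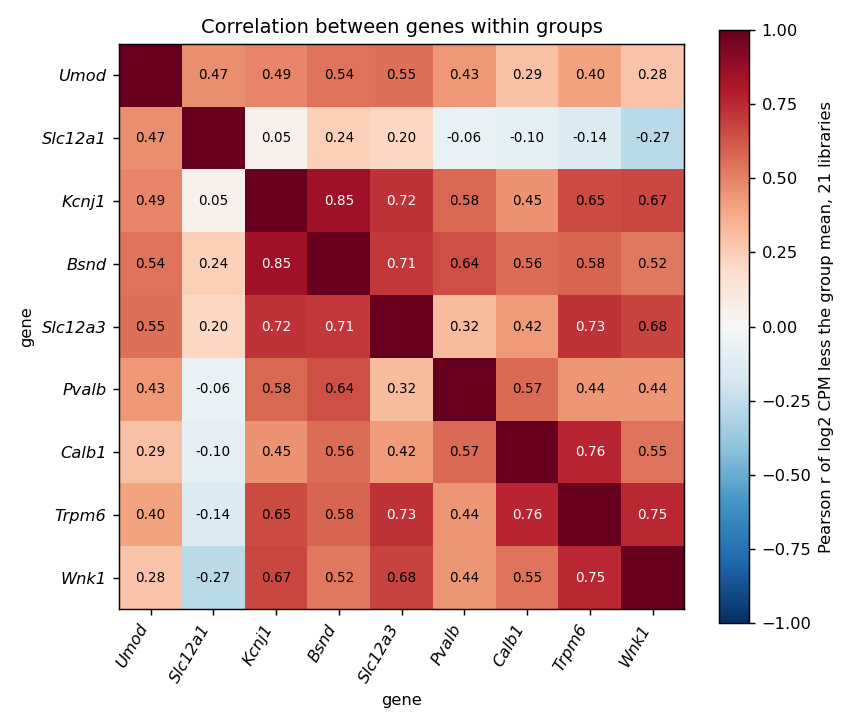
Pearson's r (colour and printed value) between the 9 genes, from log2 CPM less the group mean over 21 libraries. The *Slc12a1* row is pale, from -0.27 to 0.47, while *Kcnj1*, *Bsnd*, *Slc12a3*, *Trpm6* and *Wnk1* hold values of 0.52 to 0.85 among themselves.

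Other genes of the same segments were counted from lists fixed by name. Of 18 tested genes of the thick ascending limb, 0 were higher and 1 was lower with age, against 12.2% and 12.4% of all genes, with a median log2 fold change of -0.0009. The gene was *Enox1* (log2 fold change -1.20), whose low level put it outside the rule for named genes, so it was named after its value was seen. With MCC950, 0 were higher and 3 lower than with saline, against 11.9% and 4.86% of all genes, with a median of -0.25 beside 0.00 for all genes. *Cldn19* fell by 0.86 (standard error 0.24, adjusted p = 0.0194), *Irx2*, a homeobox factor, fell by 0.67 (adjusted p = 0.0383), and *Casr*, the calcium-sensing receptor, fell by 0.39 (adjusted p = 0.0434). The call of *Cldn19* held when each library was left out (highest adjusted p 0.0361). That of *Irx2* was lost without any one of saline replicates 6 and 7 or MCC950 replicates 3, 4, 6, 7 and 8 (up to 0.0733), and that of *Casr* without any one of saline replicates 4, 5 and 6 or MCC950 replicates 1, 3, 4, 6, 7 and 8 (up to 0.0790), and also with the replicate number as a block (0.0568) or no filter on low counts (0.0575). Against young mice, 6 of 18 were lower after MCC950 and 0 higher, against 16.5% and 21.8% of all genes. Among the 6 were *Irx2* (log2 fold change -0.83, adjusted p = 0.00699), *Cldn16* (-0.68, adjusted p = 0.0457), *Casr* (-0.49, adjusted p = 0.00766) and *Egf* (-0.48, adjusted p = 0.0315), of which *Cldn16* (up to 0.131, without young replicate 5) and *Egf* (up to 0.100, without young replicate 1) lost their calls when single libraries were left out.

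Of 13 genes listed for the distal convoluted tubule, 0 were higher and 4 lower with age, against 12.2% and 12.4% of all genes, with a median log2 fold change of -0.05. Among those not called were *Emx1* (log2 fold change 0.06, adjusted p = 0.801), *Sall3* (-0.05, 0.858) and *Tfap2b* (0.06, 0.811). *Slc8a1*, the sodium-calcium exchanger, fell by 0.84 (standard error 0.18, adjusted p = 0.00226) with no overlap between groups, which was also so for 9.37% of all genes. *Klk1*, tissue kallikrein, fell by 0.67 (adjusted p = 0.00822), *Trpv5*, the apical calcium channel, by 0.52 (adjusted p = 0.0491) and *Cnnm2*, a magnesium transport protein, by 0.47 (adjusted p = 0.0276). Single libraries decided the last 2 calls, with adjusted p of up to 0.134 for *Trpv5* and 0.0823 for *Cnnm2*, both without young replicate 3. The call of *Trpv5* was also lost with the replicate number as a block (log2 fold change -0.42, adjusted p = 0.106), with no filter on low counts (0.0646), with at least 10 counts in every library (0.0503), with library totals only (0.126) and with proximal tubule markers as a covariate (0.0591). With MCC950, 2 were higher and 1 lower than with saline, against 11.9% and 4.86% of all genes. *Cnnm2* rose by 0.50 (adjusted p = 0.0230) and *Fxyd2*, a subunit of the sodium pump that proximal tubule cells also express, rose by 0.48 (adjusted p = 0.0148). With the mean level of proximal tubule markers as a covariate neither call held, and the log2 fold change was 0.17 for *Fxyd2* (adjusted p = 0.421) and 0.51 for *Cnnm2* (adjusted p = 0.113). Of those markers, 8 of 15 were themselves called higher with MCC950. With the covariate 449 genes in all were called higher and 348 lower, against 1957 and 796 without it. The part of proximal tubule RNA in these 2 rises was not tested. *Tfap2b* fell by 0.39 (adjusted p = 0.0418), a call lost without any one of saline replicates 4, 5 and 6 or MCC950 replicates 1, 4, 6, 7 and 8 (up to 0.0704). The call of *Cnnm2* was lost without saline replicate 2 (0.0559) or 6 (0.0582). Against young mice 2 were higher and 3 lower, against 21.8% and 16.5% of all genes, with *Trpv5* (log2 fold change -0.85), *Klk1* (-0.81) and *Slc8a1* (-0.72) among the latter and *Fxyd2* (0.44) among the former, a call also lost with proximal tubule markers as a covariate (log2 fold change 0.22, adjusted p = 0.114).

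Of 12 tested genes of the WNK-SPAK pathway and its hormonal control, 0 were higher and 4 lower with age, against 12.2% and 12.4% of all genes, with a median log2 fold change of -0.22. *Sgk1*, a kinase induced by aldosterone, fell by 1.04 (standard error 0.16, adjusted p = 0.000142), and *Hsd11b2*, which protects the mineralocorticoid receptor from glucocorticoids, fell by 0.82 (adjusted p = 0.00932). *Nr3c2*, the mineralocorticoid receptor, fell by 0.57 (adjusted p = 0.00265) and *Cab39*, an activating partner of SPAK, by 0.26 (adjusted p = 0.00146). *Sgk1*, *Nr3c2* and *Cab39* did not overlap between groups, which was also so for 9.37% of all genes. With library totals only, the age calls of *Nr3c2* (adjusted p = 0.0596) and *Cab39* (0.335) were lost. The other 8 of the 12 were not called with age, among them *Wnk4* (log2 fold change 0.06, adjusted p = 0.815). The genes of SPAK (*Stk39*, -0.18, adjusted p = 0.323) and OSR1 (*Oxsr1*, -0.07, adjusted p = 0.518) were also among these. With MCC950, 1 of the 12 was called lower than with saline and 0 higher, against 4.86% and 11.9% of all genes. It was *Nr3c2*, which fell by 0.45 (standard error 0.12, adjusted p = 0.0149), a call lost with proximal tubule markers as a covariate (adjusted p = 0.0517). Against young mice the log2 fold changes after MCC950 were -1.32 for *Hsd11b2*, -1.30 for *Sgk1*, -1.01 for *Nr3c2* and -0.27 for *Cab39*, all of them called, beside 16.5% of all genes.

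Markers of other cells differed between the same groups, and in bulk RNA fewer cells of a type and less RNA per cell cannot be told apart. With age, 14 of 15 podocyte, 7 of 8 endothelial, 6 of 7 mesangial and smooth muscle and 6 of 11 collecting duct markers fell, while 3 of 8 macrophage and 4 of 5 B and plasma cell markers rose. Of the 15 proximal tubule markers 1 fell. Among all genes 12.4% were called lower and 12.2% higher with age. Summed collecting duct markers were 638 to 1384 CPM in young and 434 to 736 in saline-treated libraries. With MCC950, 8 of 15 proximal tubule markers rose and 0 fell relative to saline, and their sum was 3429 to 10021 CPM against 2399 to 5574. In that comparison 11.9% of all genes were called higher and 4.86% lower. Of the 15 podocyte markers 5 rose and 1 fell, 2 of 8 endothelial markers fell, and no marker of the collecting duct, mesangium, macrophages or B and plasma cells was called. Between MCC950-treated and young mice, 14 of 15 podocyte, 11 of 11 collecting duct, 8 of 8 endothelial and 7 of 7 mesangial and smooth muscle markers fell. In the same comparison 8 of 15 proximal tubule, 2 of 8 macrophage and 4 of 5 B and plasma cell markers rose. Among all genes 16.5% were called lower and 21.8% higher there. The 9 genes summed to 3557 to 4704 CPM in young, 3500 to 5243 in saline-treated and 2779 to 4769 in MCC950-treated libraries. When the mean log2 level of proximal tubule markers entered the fit, *Umod* and *Slc12a1* were called lower with MCC950 (log2 fold change -0.77, adjusted p = 0.0162, and -1.35, adjusted p = 0.0313). When that of podocyte markers entered instead, the values were -0.47 (adjusted p = 0.0459) and -0.73 (adjusted p = 0.0863). The part of any marker list in these results was not tested.

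**Figure D5:**
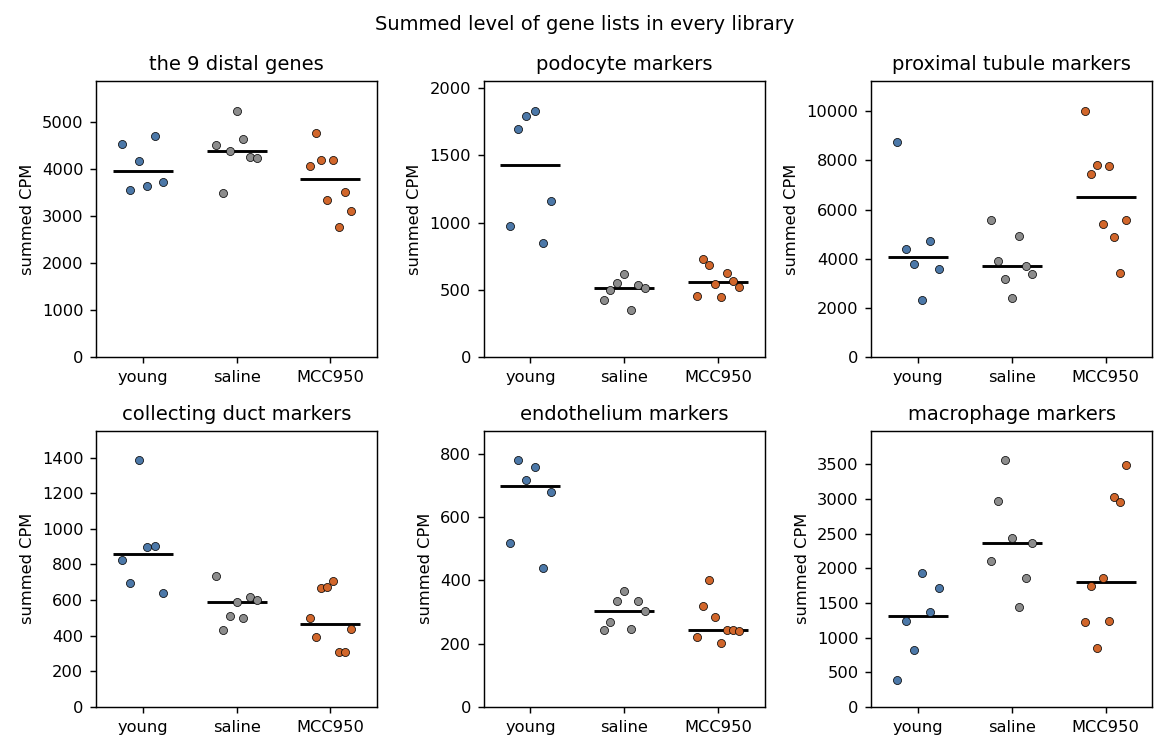
Summed TMM-scaled CPM (vertical axes, each from 0) of the 9 genes and of 5 marker lists in every library by group, with medians as bars. The sum of the 9 genes overlaps between all groups, the podocyte sum of young libraries (849 to 1833) lies above that of saline-treated ones (353 to 619), and the proximal tubule sum reaches 10021 in the MCC950 group.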

How the data were processed

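RNA-seq libraries of 21 podocyte fractions were analysed. Per the labels, the authors trimmed reads with Trim Galore, aligned them with Bowtie2 to GRCm38 (mm10) and counted them per gene with featureCounts. The deposited values used here are these raw counts, whole numbers for 27179 Entrez Gene numbers in each library. Tool versions, the annotation and the strand setting are not given in the sources used here. A deposited table of DESeq2-normalized counts was not used. Libraries were taken as separate mice, as the study's methods describe. No 2 libraries of a group agreed within sampling noise (lowest chi-square per degree of freedom 16.8).

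Gene names came from RefSeq for 25275 numbers and from GENCODE M21 for another 18, and 1886 stayed unnamed. All 123 listed genes were matched. Genes were filtered with filterByExpr by group (minimum count 10), scaled by TMM (factors 0.601 to 1.47) and tested with edgeR 4.0.16 (quasi-likelihood F test, R 4.3.3) with all 3 groups in one fit, and p-values were adjusted by Benjamini-Hochberg over 16377 genes. A gene was called at an adjusted p under 0.05, and called genes are described as having risen or fallen. Standard errors were obtained from the fold change and the F statistic. The procedure was also run on simulated counts, drawn gene by gene from the fitted means and dispersions. They held no shift in composition or mitochondrial share between groups, so they cannot show how the test handles such shifts. Ratios, tables and figures were made in Python 3.11.15 with pandas 2.3.3 and numpy 2.4.6. Reads per kilobase used the longest coding transcript of each gene in GENCODE M21.

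The genes and lists were chosen with earlier results of these data known. Named genes were the 9 genes, and from each list and comparison the 4 called genes with the largest absolute log2 fold change and a mean log2 CPM of at least 0. For *Slc12a1* and *Slc12a3* the 5 most correlated genes were added. Alternatives were RLE size factors, library totals only, DESeq2 1.42.0, other filters, a replicate block, mitochondrial genes left out, marker scores as covariates, fits of 2 groups and leaving out each library.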

Additional observations from a re-analysis of the deposited data

Results flagged for a closer look

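In 39 groups of values (9 genes and 4 ratios in 3 groups of libraries), a library was marked where its gap to the nearest other library exceeded Dixon's 95% limit for the group's range. Chance marks about 1 in 20 groups, and 3 were marked. Young replicate 3 had 726 CPM of *Wnk1*, above the other young libraries. Saline replicate 4 had 638 CPM of *Wnk1*, above the other saline-treated libraries. Saline replicate 5 had a log2 ratio of *Umod* to *Slc12a1* of 3.31, above the others of its group.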

How the results depend on the processing

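Counts are called genes, higher then lower. The call of *Umod* with MCC950 was lost with library totals only and kept under the other alternatives, and that of *Calb1* with age was lost only with the podocyte score as a covariate. Library totals only gave, for the 9 genes, 1 call with age (0, 1), 4 with MCC950 (4, 0) and 1 against young (1, 0). For the thick ascending limb list they gave 1 with MCC950 (1, 0) and 1 against young (1, 0), for the distal convoluted list 2 with age (0, 2) and 3 against young (3, 0), and for the WNK-SPAK list 2 with age (0, 2) and 4 with MCC950 (4, 0). Directions turned in the same fit for log2 fold changes of *Slc12a1* with age (-0.0072), of *Bsnd* (0.32), *Casr* (0.0229) and *Tfap2b* (0.019) with MCC950, and of *Cab39* (0.10), *Kcnj1* (0.12), *Trpm6* (0.26), *Umod* (0.16) and *Wnk1* (0.23) against young, while the median of all genes was 0.42 and 0.44 with MCC950.

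The podocyte score separates young from saline-treated libraries, and with it as a covariate 6 genes in all were higher and 0 lower with age (1996 and 2038 without it), so calls with age could hardly be made. It gave 0 calls with age for the 9 genes and for each of the 3 lists. With MCC950 it gave 1 call for the 9 genes (0, 1), 1 for the thick ascending limb (0, 1), 3 for the distal convoluted list (1, 2) and 2 for the WNK-SPAK list (0, 2). Against young it gave 0 for the 9 genes, 1 for the thick ascending limb, 0 for the distal convoluted and 1 for the WNK-SPAK list, with 37 genes higher and 96 lower in all. Directions turned for *Sgk1* (0.11), *Slc12a1* (-0.51) and *Wnk1* (0.21) with age, *Wnk1* (-0.0548) with MCC950, and *Trpm6* (0.0421) and *Wnk1* (0.16) against young. The proximal tubule score gave 2 thick ascending limb calls with age (1, 1) and 6 with MCC950 (0, 6), 2 distal convoluted calls with MCC950 (0, 2), and a turned *Kcnj1* with MCC950 (-0.0315), and it ended the calls of *Pvalb* and *Trpv5* with age, of *Cnnm2*, *Fxyd2* and *Nr3c2* with MCC950 and of *Slc12a3* and *Fxyd2* against young. It left 449 genes higher and 348 lower with MCC950.

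For the thick ascending limb list with MCC950, RLE size factors gave 5 calls, DESeq2 6 and a fit of the 2 groups 6, all lower. The fit of 2 groups gave 2 with age (1, 1). DESeq2 gave 3 for the WNK-SPAK list with MCC950 (1, 2). The cause of these changes was not tested.

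Same-numbered libraries did not all deviate together (r from -0.18 to 0.57, from -0.26 to 0.54 and from 0.01 to 0.66), so the numbers were not taken as pairs. With the replicate number as a block, the thick ascending limb list had 2 calls with age (1, 1) and the WNK-SPAK list 2 with MCC950 (0, 2), and *Umod* and *Slc12a1* stayed called with MCC950 (adjusted p = 0.0197 and 0.0187). The block ended the calls of *Trpv5* with age (0.106), *Casr* with MCC950 (0.0568) and *Egf* against young (0.0852), and made that of *Calb1* against young (0.0280). No filter on low counts ended those of *Pvalb* and *Trpv5* with age, *Casr* and *Tfap2b* with MCC950 and *Slc12a3* and *Cldn16* against young.

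Leaving out 1 library gave 1 to 3 calls among the 9 genes with age, 1 to 2 with MCC950 and 2 to 3 against young. The thick ascending limb list had 1 to 2, 1 to 5 and 3 to 7, the distal convoluted list 2 to 4, 1 to 4 and 4 to 6, and the WNK-SPAK list 4 to 5, 1 to 2 and 4 to 6. The log2 fold change of *Slc12a1* with age ran from -0.0698 to 0.24 and that of *Kcnj1* with MCC950 from -0.0134 to 0.11.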
